A study of Mus musculus with 66 samples.

Results

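MHC class II antigen presentation was followed here through 7 genes (H2-Aa, H2-Ab1, H2-Eb1, Cd74, Ciita, H2-DMa and H2-DMb1), chosen by symbol from the 30452 genes of the deposited table. Bulk RNA sequencing covered 66 dissected mucosal sections from 19 wildtype C57Bl/6 mice, which the Jackson Laboratory supplied when they were 6 weeks old. Dextran sulfate sodium (DSS), a polymer that injures the colonic lining when given in drinking water, was used at 3% for 6 days from experimental day 0. The tissues compared were 4: mid-colon, rectum and anus from every mouse, and squamous neo-epithelium, a squamous lining that the labels list as a section of its own at days 9, 14 and 20. Uninjured mice were mice 1 to 4 at day 0. Mice 5 to 7 were killed at day 3, before the 6 days of DSS were complete, mice 8 to 10 at day 6, mice 11 to 13 at day 9, mice 14 to 16 at day 14 and mice 17 to 19 at day 20. The labels name no littermates or cages, so p-values measure only the spread between these mice. Each section is whole tissue, labelled as mucosa, so fewer cells of a type and less RNA per cell cannot be told apart in any value below.

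The 7 genes are located as follows in GENCODE M21 on GRCm38. H2-Aa is at chr17:34282744-34287823 on the minus strand, H2-Ab1 at chr17:34257689-34269419, H2-Eb1 at chr17:34305867-34316674, H2-DMa at chr17:34119541-34139101 and H2-DMb1 at chr17:34153072-34160230, all 4 on the plus strand. Ciita is at chr16:10480059-10528418 and Cd74 at chr18:60803848-60812652, both on the plus strand. All 7 had values, over 16 transcripts, and none of their transcripts was listed on more than 1 row.

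Class II molecules present peptides taken up from outside the cell to CD4 T cells. The alpha and beta chains (H2-Aa with H2-Ab1 for the A molecule, H2-Eb1 for the E molecule) assemble in the endoplasmic reticulum on the invariant chain Cd74, which is cut away in endosomes, and the H2-DM heterodimer (H2-DMa with H2-DMb1) then exchanges its last fragment for a peptide. Ciita is the transactivator on which transcription of these genes depends. It is made constitutively in dendritic cells and B cells and is induced by interferon gamma in macrophages, epithelial cells and other cells, and it acts without binding DNA itself, through factors at the X and Y boxes of class II promoters.

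Promoter windows of 250 bases before to 50 bases after the start site were matched by symbol in the RefSeq table (GRCm38.p6) for 4 of the 7 genes: H2-Aa, H2-Eb1, H2-DMb1 and H2-DMa, the last with 2 windows. A pair of stretches is shown, from H2-Eb1, which held letters of both the X and the Y box, and from H2-Aa. The H2-Aa stretch held Y box and cyclic AMP element letters and matched neither X box pattern searched. That does not show that it lacks an X box. H2-Eb1 and H2-Aa are the genes whose levels had the highest correlation of any pair of members (r = 0.985 over 66 libraries). Capitals mark matches to the motifs searched, which were GCAACNG for an X box core, GATTGG for a Y box core, ACTGATGA for another part of the X box and TGACGTCA for a cyclic AMP element, each on both strands. The latter pair was chosen after the promoter sequences were seen.
H2-Eb1, chr17:34305747-34305852, plus strand: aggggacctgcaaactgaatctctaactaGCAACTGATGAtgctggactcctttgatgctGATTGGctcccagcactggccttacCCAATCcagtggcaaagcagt
H2-Aa, chr17:34287827-34287932, minus strand: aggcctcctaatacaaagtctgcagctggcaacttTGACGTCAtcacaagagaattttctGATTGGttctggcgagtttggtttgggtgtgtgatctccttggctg
In H2-Eb1 the X box core lay at -91 to -85 from the start site, where it overlapped ACTGATGA at -88 to -81, and GATTGG lay at -60 to -55. A second GATTGG, on the opposite strand, lay at -35 to -30. In H2-Aa TGACGTCA lay at -74 to -67 and GATTGG at -49 to -44. The H2-DMb1 window held ACTGATGA at -91 to -84 and GATTGG at -62 to -57, and 1 of the 2 H2-DMa windows held GATTGG, at -199 to -194. Of the 32851 promoter windows searched, 16.1% held GATTGG, 12.7% held GCAACNG, 1.79% held TGACGTCA and 0.968% held ACTGATGA. Both ACTGATGA and GATTGG, as in H2-Eb1 and H2-DMb1, were found together in 0.143% of windows. A match describes letters only and is not evidence of a bound site.

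Depth is unknown, since the table holds TPM, a length-adjusted share of each library, and no read counts. Between 11268 and 13789 genes reached 1 TPM in a library. The sections carried the epithelial markers of their labels: Krt5, Krt14, Trp63, Krt13 and Krt4, genes of squamous epithelium, summed to between 3.37 and 21.62 TPM in mid-colon (Trp63 at 0 there at days 0 and 3), 7676.4 and 22137.2 TPM in anus and 11410.6 and 25848.6 TPM in neo-epithelium. The rectum held between 6.41 and 761.3 TPM of these squamous genes. The anus was mixed at day 0, where 8 markers of colonic epithelium summed to between 1257.7 and 3899.1 TPM. At day 3 they summed to between 2426.8 and 5901.3 TPM there. Neo-epithelium was mixed as well. The same 8 markers summed to between 253.4 and 990.2 TPM at day 9, 1172.4 and 5557.1 TPM at day 14 and 2728.7 and 5555.9 TPM at day 20. The anal libraries also held skeletal muscle genes (Acta1, Ckm and Tnnc2), although the labels describe the mucosa as muscle-free. These summed to between 832.5 and 9317.5 TPM in the day 0 anus, against 10.54 to 25.28 TPM in the day 0 rectum. At day 9 they summed to 3875.4 to 3975.7 TPM in anus, 3.85 to 103.6 TPM in rectum and 0.50 to 1.24 TPM in neo-epithelium. The part of muscle RNA in the anal levels was not tested. Several mice stood apart in the class II genes across their sections. Mouse 11 had the lowest value of the 3 day 9 mice for all 7 genes in rectum, anus and neo-epithelium, and mouse 18 had the highest of the 3 day 20 mice for all 7 in the same sections. Mouse 14 at day 14 and mouse 19 at day 20 were lowest for all 7 in both rectum and mid-colon, and results at these days are also given without them. Mice 11, 14 and 19 stand out by the members' own low values, so leaving them out favours calls of a rise. Counts without them are a description only, and the share of all genes called without them is not given. Leaving 1 of them out also shrank the smaller group, so the filter asked for 1 TPM in fewer samples. In comparisons with day 0, Ciita then passed it through the mice that were kept. Counts of 7 called genes include Ciita for that reason, and its call there is not support for a rise.

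In uninjured mice the class II chains and Cd74 were lowest in mid-colon, higher in rectum and highest in anus. H2-Aa, the A alpha chain, stood at 52.1, 51.12, 51.33 and 63.76 TPM in the mid-colon of mice 1 to 4, at 117.0, 83.35, 87.83 and 162.0 TPM in the rectum and at 269.1, 220.0, 211.0 and 240.5 TPM in the anus. No value overlapped between neighbouring sections. Of 13523 genes, 16.9% lay wholly higher in rectum than in mid-colon and 23.8% wholly higher in anus than in rectum. Cd74, the invariant chain, stood at 33.85, 32.83, 40.84 and 38.31 TPM in mid-colon, 78.12, 56.68, 63.63 and 106.7 TPM in rectum and 219.1, 194.6, 177.3 and 196.2 TPM in anus, again without overlap.
Anus exceeded rectum for all 6 genes that passed the filter of 1 TPM, where 25.9% of the 13158 genes tested were called higher in the anus (limma, adjusted p under 0.05 over all genes, the rule for every call below). The differences on the log2(TPM + 1) scale were 1.5 ± 0.16 (SE) for the A beta chain H2-Ab1 (adjusted p = 3.58e-05), 1.39 ± 0.19 for Cd74 (adjusted p = 0.000163), 1.10 ± 0.20 for H2-Aa (adjusted p = 0.0011), 1.05 for H2-Eb1, 1.04 for H2-DMb1 and 0.88 for H2-DMa. Their median was 1.07, against -0.15 over all genes.
Rectum exceeded mid-colon for 4 of 6 genes, with 1.52% of 12037 genes called higher. H2-Eb1 differed by 1.07 ± 0.17 (adjusted p = 0.0267), Cd74 by 1.01 ± 0.18 (adjusted p = 0.0311), H2-Aa by 0.99 ± 0.19 (adjusted p = 0.0389) and H2-DMa by 0.93 ± 0.16 (adjusted p = 0.0293). H2-Ab1 (0.70, adjusted p = 0.0613) and H2-DMb1 (0.81, adjusted p = 0.0609) missed the threshold. The median of all genes was itself shifted by 0.21 here and fell to 0.02 under median-ratio scaling, under which 1 of the 6 remained called. None was called when any of mice 1, 2 or 3 was left out, and 5 were called with the mouse as a block.
Ciita did not follow this order. It was at 0.10, 0.22, 0.12 and 0.09 TPM in mid-colon, 0.27, 0.16, 0.27 and 0.56 TPM in rectum and 0.22, 0.12, 0.14 and 0.28 TPM in anus, values that overlapped between rectum and anus and lay under the filter. At day 0 macrophage markers (Adgre1, Csf1r, Cd68, Mertk, C1qa, C1qb, C1qc and Cx3cr1, none at 0 in all samples of a group) summed to between 69.92 and 97.96 TPM in mid-colon, 121.0 and 143.0 TPM in rectum and 168.1 and 248.4 TPM in anus. Cd207, which marks Langerhans cells, was at 1.29 to 4.53 TPM in mid-colon, 1.80 to 2.87 TPM in rectum and 4.26 to 4.88 TPM in anus. Dendritic markers (Flt3, Zbtb46, Xcr1, Clec9a, Itgax, Cd209a and Ccr7) summed to between 1.18 and 1.77 TPM in mid-colon, 2.03 and 3.26 TPM in rectum and 4.89 and 6.19 TPM in anus. The part of these in the difference between sections was not tested.

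**Figure D1:**
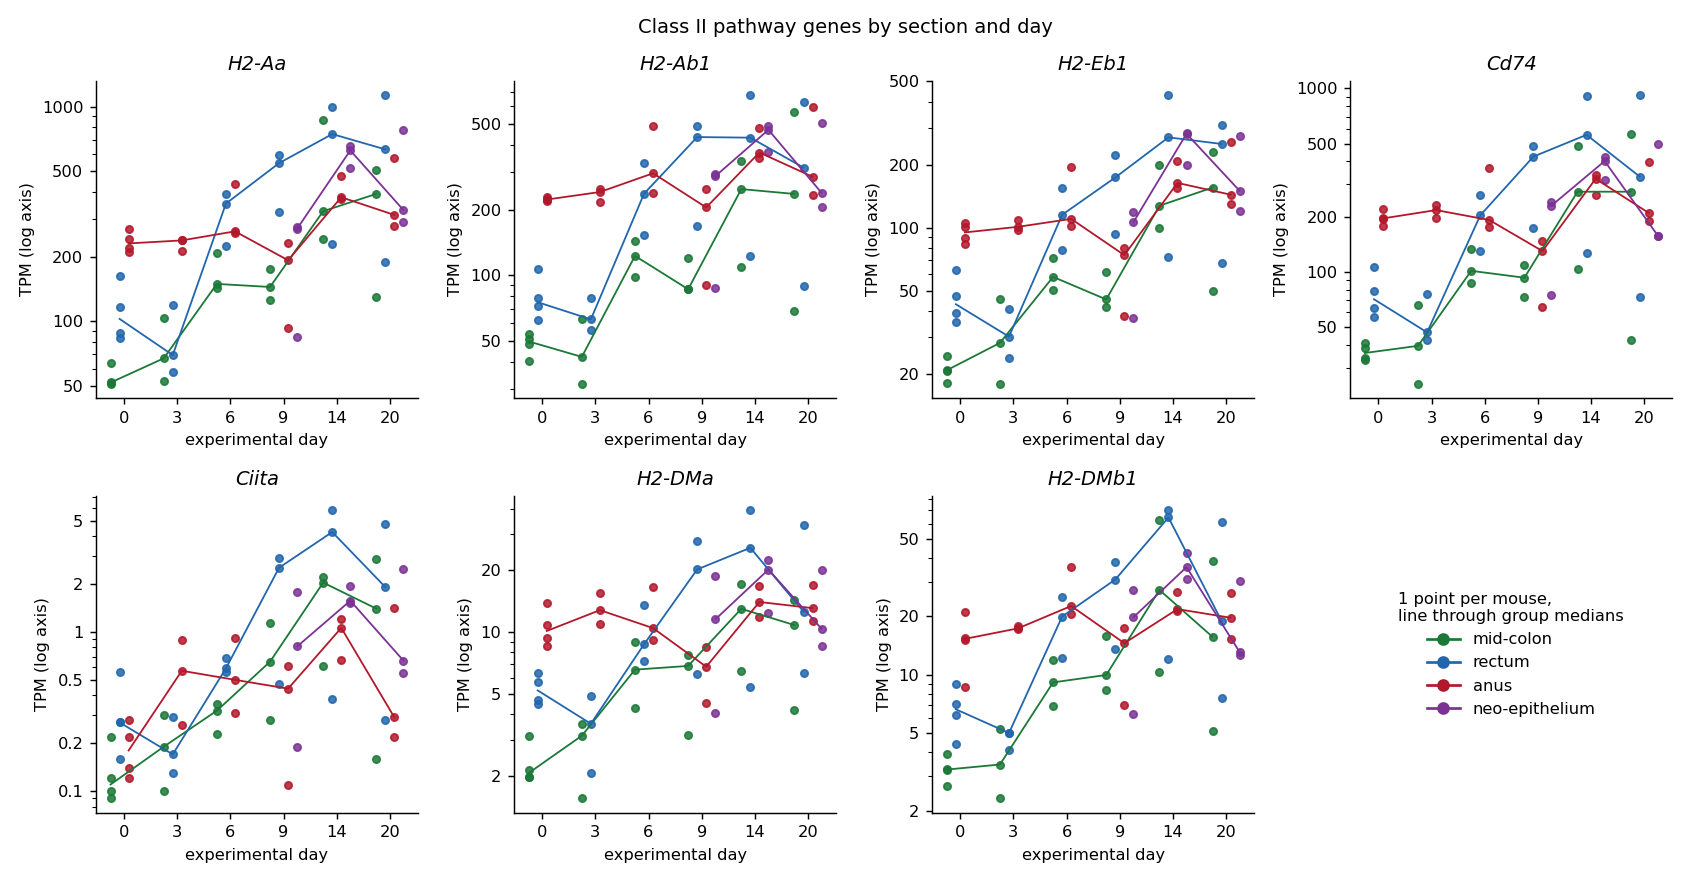
TPM of each of the 7 genes (log axis) against experimental day, 1 point per mouse and section, with lines through the group medians (4 mice at day 0 and 3 at each later day). The mid-colon and rectum climb from day 6, while the anus starts higher, at 211.0 to 269.1 TPM for H2-Aa, and stands at 92.71 to 573.4 TPM on later days.

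At day 3 no member was called in any section. In mid-colon 0 of 6 genes were called, with 0.375% of 12008 genes called in either direction, and H2-Aa stood at 52.68, 67.09 and 102.9 TPM in mice 5, 6 and 7. In rectum 0 of 6 were called, with 6.62% of 12348 genes called. All 6 rectal estimates were negative, with a median of -0.47 against -0.06 over all genes, and Cd74 was at 46.73, 42.28 and 75.27 TPM, a range that overlapped day 0. In anus 0 of 6 were called, with 0.044% of 13639 genes called, and H2-Aa was at 237.8, 212.3 and 239.1 TPM. At an unadjusted p under 0.05 in limma, the only tool run, the members numbered 0 in mid-colon, 2 in rectum and 0 in anus. All genes at that level numbered 1304 of 12008, 2515 of 12348 and 615 of 13639.

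By day 6 all 6 tested genes had risen in both mid-colon and rectum, and none was called in anus. H2-Aa reached 143.2, 149.1 and 208.0 TPM in the mid-colon of mice 8, 9 and 10, every value above the highest day 0 value of 63.76 TPM. It reached 352.9, 224.2 and 392.2 TPM in the rectum, again with no overlap with day 0. Cd74 reached 101.2, 86.32 and 133.6 TPM in mid-colon and 203.0, 130.6 and 261.0 TPM in rectum, clear of day 0 in both sections.
In mid-colon 4.93% of 11967 genes rose, and the log2 changes of the 6 genes ran from 1.16 ± 0.24 for H2-DMa (adjusted p = 0.0137) to 1.58 ± 0.16 for H2-Aa (adjusted p = 0.000657), with a median of 1.38 against -0.24 over all genes. In rectum 11.5% of 12615 genes rose, and the changes ran from 0.75 ± 0.21 for H2-DMa (adjusted p = 0.017) to 1.53 ± 0.26 for H2-Ab1 (adjusted p = 0.00255), with a median of 1.36 against -0.27. With all days of a section in 1 fit, 3 of 6 genes were called in mid-colon and 1 of 6 in rectum.
No difference in the size of the rise between rectum and mid-colon was called at day 6. None of the 6 genes, and 0% of 12986 genes, was called by limma. At an unadjusted p under 0.05 there were 730 genes and 0 members, and the H2-Aa estimate was -0.05 ± 0.33.
Macrophage markers were higher in the same libraries, at 226.7 to 371.8 TPM in mid-colon and 359.6 to 895.9 TPM in rectum, against 69.92 to 97.96 and 121.0 to 143.0 TPM at day 0. Dendritic markers were higher too, at 4.28 to 6.01 TPM in mid-colon and 7.62 to 13.66 TPM in rectum, against 1.18 to 1.77 and 2.03 to 3.26 TPM. The part of either list in the rise was not tested.
The anus at day 6 showed 0 of 6 calls, with 15% of 13730 genes called in either direction. H2-Aa stood at 435.9, 262.1 and 257.2 TPM in mice 8, 9 and 10, so that mouse 8 was high and the other two lay within the day 0 range. H2-Ab1 stood at 486.0, 239.8 and 295.0 TPM, each above the 220.7 to 228.9 TPM of day 0, but was not called (0.54 ± 0.22, adjusted p = 0.152). In the anus 18.2% of 13523 genes lay wholly above day 0. H2-DMb1, the DM beta chain, had the largest estimate of the 6, 0.78 ± 0.30 (adjusted p = 0.125). An unadjusted p under 0.05 was met by 2 of the 6 members and by 3946 of 13730 genes. Macrophage markers summed to between 450.9 and 736.3 TPM in these anal libraries, above the 168.1 to 248.4 TPM of day 0.

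At day 9, 3 days after DSS ended, all 6 genes were again higher than at day 0 in mid-colon and rectum. Rectal Cd74 stood at 174.2, 424.6 and 484.9 TPM in mice 11, 12 and 13, above its day 0 maximum of 106.7 TPM, and rectal H2-Ab1 at 169.2, 487.6 and 433.1 TPM against 62.52 to 106.8 TPM at day 0. Mouse 11 was lowest in both genes. Of 13523 genes, 33.3% lay wholly above day 0 in rectum. In rectum 33.5% of 13140 genes rose, so that calls were common, and the 6 genes had a median log2 change of 1.94 against 0.13 over all genes.
The largest rectal changes were those of Cd74, 2.14 ± 0.35 (adjusted p = 0.00105), H2-Aa, 2.11 ± 0.28 (adjusted p = 0.000286) and H2-Ab1, 2.06 ± 0.35 (adjusted p = 0.0012), and the smallest was that of H2-DMa, 1.39 ± 0.41 (adjusted p = 0.0195). H2-DMa stood at 6.23, 27.67 and 20.23 TPM, of which mouse 11 lay within the day 0 range of 4.48 to 6.33 TPM. Its call was lost with no filter (adjusted p = 0.0501), with all days in 1 fit (0.057) and without mouse 12 or mouse 13 (0.0679 and 0.0774).
In mid-colon 26.5% of 12323 genes rose. H2-Aa was at 144.3, 174.4 and 125.4 TPM in mice 11, 12 and 13, and H2-DMb1 at 9.97, 15.87 and 8.35 TPM against 2.69 to 3.91 TPM at day 0, both without overlap. Such a rise without overlap was met by 28.3% of 13523 genes. The log2 changes ran from 0.99 ± 0.18 for H2-Ab1 (adjusted p = 0.00141) to 1.5 ± 0.23 for H2-DMb1 (adjusted p = 0.000612), with a median of 1.24 against 0.09. In mid-colon it was mouse 13, not mouse 11, that was lowest for all 7 genes. With all days in 1 fit the mid-colon calls of H2-Ab1 (adjusted p = 0.108) and Cd74 (0.0983) were lost, and without mouse 12 that of H2-DMa was (0.0594).
Ciita was at 0.47, 2.90 and 2.53 TPM in the rectum of mice 11, 12 and 13 and at 0.65, 1.13 and 0.28 TPM in their mid-colon. It failed the filter, and with no filter its changes were 1.06 ± 0.34 in rectum (adjusted p = 0.0469) and 0.54 ± 0.16 in mid-colon (adjusted p = 0.0465).
The rise in rectum less that in mid-colon was not called for any of 7 genes, where 6.55% of 13520 genes were called. An unadjusted p under 0.05 was met by 1 of the 7 and by 2469 of all genes. The estimates were 1.07 ± 0.42 for H2-Ab1 (adjusted p = 0.172) and 0.85 ± 0.42 for Cd74 (adjusted p = 0.305), and both were called when mouse 11 was left out (1.47, adjusted p = 0.00781, and 1.33, adjusted p = 0.026).

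In the anus the day 9 estimates were negative for all 6 genes. H2-Aa stood at 92.71, 232.2 and 192.2 TPM in mice 11, 12 and 13 against 211.0 to 269.1 TPM at day 0, and Cd74 at 64.17, 129.7 and 146.6 TPM against 177.3 to 219.1 TPM. All 3 Cd74 values lay below every day 0 value, as did those of 9.88% of 13523 genes, while H2-Aa overlapped through mouse 12. Against day 0 itself none of the 6 genes was called, with 5.09% of 13591 genes called in either direction, and the median estimate was -0.58 against 0.06 over all genes. At an unadjusted p under 0.05 there were 3 of the 6 members and 2620 of 13591 genes.
Set against the rectum, the difference of responses was called for all 6 genes, as was a lower response in the anus for 15.6% of 14733 genes. It was -3.01 ± 0.48 for Cd74 (adjusted p = 0.000561), -2.65 ± 0.43 for H2-Aa (adjusted p = 0.00065), -2.48 ± 0.51 for H2-Ab1 (adjusted p = 0.00341), -2.36 for H2-Eb1, -2.04 for H2-DMb1 and -2.03 for H2-DMa, with a median of -2.42 against -0.12 over all genes. The call was made for 4 genes without mouse 13, for 7 without mouse 11 (Ciita then passed the filter), and for 6 with the mouse as a block.
Other genes of the sections moved with this difference. The colonic epithelial markers summed to between 148.8 and 184.1 TPM in the anus at day 9, against 1257.7 to 3899.1 TPM at day 0, and 7 of 8 of them had a lower response in anus than in rectum. Macrophage markers summed to between 255.1 and 338.0 TPM in the day 9 anus, against 168.1 to 248.4 TPM at day 0, and to between 608.1 and 864.8 TPM in the day 9 rectum, against 121.0 to 143.0 TPM. Dendritic markers were lower in the day 9 anus, at 2.99 to 4.64 TPM against 4.89 to 6.19 TPM at day 0. In the day 9 rectum they were higher, at 6.56 to 21.69 TPM against 2.03 to 3.26 TPM. Cd207 was lower in both, at 0.44 to 2.52 TPM against 4.26 to 4.88 TPM in anus and 0.00 to 0.05 TPM against 1.80 to 2.87 TPM in rectum. Their part in the result was not tested.

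**Figure D2:**
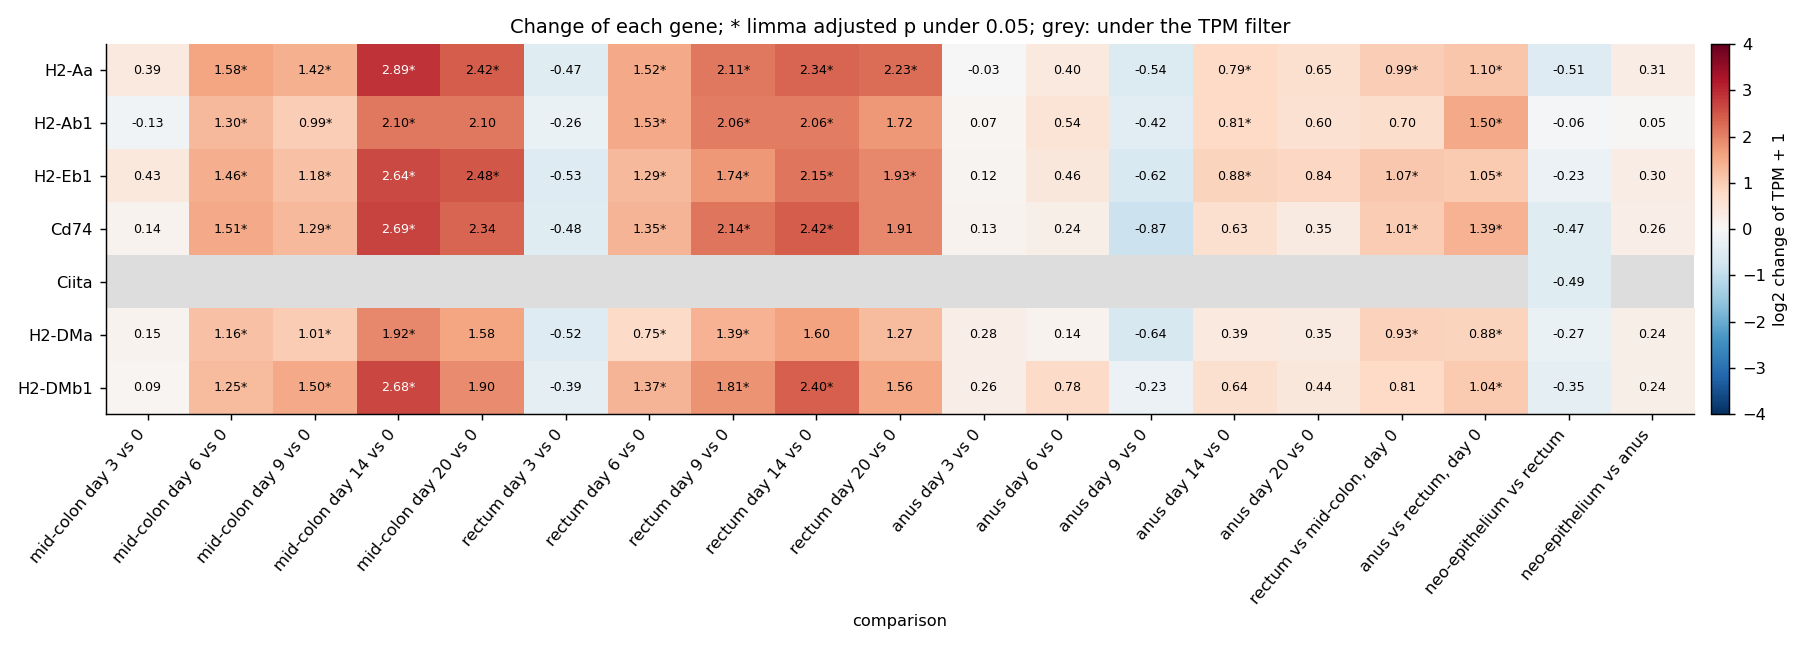
Log2 change of TPM + 1 for each gene (rows) in each comparison (columns), as a heat map with the estimate printed in each cell, an asterisk for a call and grey where Ciita failed the filter. All 6 tested genes are called in mid-colon and rectum at days 6 and 9, and the anal estimates at day 9 run from -0.23 to -0.87 with none called.

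At day 14 class II genes were again above day 0 in mid-colon and rectum, and the 3 mice differed widely. Rectal H2-Aa stood at 228.3, 1000.0 and 744.3 TPM in mice 14, 15 and 16, and rectal Cd74 at 127.1, 907.6 and 558.2 TPM. Mouse 14 was low in both, although still above every day 0 value. In rectum 11.7% of 13523 genes lay wholly above day 0. Rectal H2-DMa, at 5.38, 39.33 and 25.78 TPM, overlapped day 0 through mouse 14.
In rectum 5 of 6 genes were called, where 6.31% of 12749 genes rose. The changes were 2.42 ± 0.60 for Cd74 (adjusted p = 0.0354), 2.40 ± 0.57 for H2-DMb1 (adjusted p = 0.031), 2.34 ± 0.49 for H2-Aa (adjusted p = 0.022), 2.15 for H2-Eb1 and 2.06 for H2-Ab1, and 1.60 ± 0.56 for H2-DMa (adjusted p = 0.084), with a median of 2.24 against -0.02 over all genes. Without mouse 14 all 7 genes were called, among them Ciita, which then passed the filter through mice 15 and 16. Without any one of mice 1, 2, 3, 15 or 16 none was, and without mouse 4 only 1 was.
In mid-colon all 6 genes rose, where 2.55% of 12135 genes did. H2-Aa stood at 242.7, 325.4 and 861.1 TPM in mice 14, 15 and 16, H2-Eb1 at 99.55, 127.4 and 200.2 TPM and Cd74 at 103.7, 273.3 and 483.0 TPM, each clear of day 0. Mouse 16 was highest for all 7 genes and mouse 14 lowest. In mid-colon 9.97% of 13523 genes lay wholly above day 0.
The largest change of the 6 was that of H2-Aa, 2.89 ± 0.37 (adjusted p = 0.00711), and the most precise that of H2-Eb1, 2.64 ± 0.23 (adjusted p = 0.00186). Their median was 2.66 against -0.03. Without mouse 14 the calls numbered 7 of 7, with Ciita then past the filter. Without mouse 15 they numbered 2, and without mouse 16 they numbered 3. B cell markers (Ms4a1, Cd79a, Cd79b, Pax5 and Cr2) summed to between 23.11 and 33.52 TPM in these mid-colon libraries, against 2.02 to 4.23 TPM at day 0, and T cell markers (Cd3e, Cd3d, Cd3g, Cd4 and Cd8a) to between 4.36 and 12.72 TPM against 1.05 to 2.44 TPM. Macrophage markers summed to 137.5 to 158.1 TPM there, against 69.92 to 97.96 TPM at day 0, and dendritic markers to 4.16 to 5.62 TPM against 1.18 to 1.77 TPM. Their part in the rise was not tested.
The anus showed its only calls at day 14. H2-Aa stood at 370.4, 475.0 and 378.0 TPM, H2-Ab1 at 367.7, 479.1 and 347.7 TPM and H2-Eb1 at 154.9, 207.9 and 163.7 TPM, all above every day 0 value, as were 9.96% of 13523 genes. These 3 of 6 genes were called at 0.79 ± 0.15 (adjusted p = 0.0283), 0.81 ± 0.15 (adjusted p = 0.0218) and 0.88 ± 0.16 (adjusted p = 0.023), where 2.26% of 13763 genes rose.
Cd74 missed at 0.63 ± 0.15 (adjusted p = 0.0512). No anal call was left with median-ratio scaling, with all days in 1 fit, or without any one of mice 2, 15 or 16, and 1 was left without mouse 14. Ciita in the anus, at 0.67, 1.06 and 1.21 TPM against 0.12 to 0.28 TPM at day 0, was under the filter and had a change of 0.73 ± 0.11 without one (adjusted p = 0.0432).

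At day 20 class II levels in rectum and mid-colon were high in mice 17 and 18 and lower in mouse 19. Rectal H2-Aa stood at 631.5, 1126.6 and 188.2 TPM in mice 17, 18 and 19, and rectal Cd74 at 330.2, 915.1 and 72.5 TPM. Mouse 19 lay within the day 0 range for Cd74, which ended at 106.7 TPM, and just above it for H2-Aa. In rectum 10.5% of 13523 genes lay wholly above day 0.
Only H2-Aa (2.23 ± 0.54, adjusted p = 0.0451) and H2-Eb1 (1.93 ± 0.48, adjusted p = 0.0476) were called in rectum, where 2.79% of 12677 genes rose, and the median of the 6 was 1.81 against -0.03. Without mouse 19 all 7 genes were called, with Ciita then past the filter, and without any other single mouse none was.
Mid-colon showed the same spread. H2-Aa stood at 507.7, 391.8 and 129.4 TPM, Cd74 at 273.3, 566.6 and 42.36 TPM and H2-DMb1 at 15.65, 38.29 and 5.13 TPM in mice 17, 18 and 19. Mouse 19 was lowest in each, yet above the day 0 maxima of 63.76, 40.84 and 3.91 TPM. In mid-colon 9.15% of 13523 genes lay wholly above day 0.
The same 2 genes were called, H2-Aa at 2.42 ± 0.38 (adjusted p = 0.019) and H2-Eb1 at 2.48 ± 0.41 (adjusted p = 0.022), where 0.677% of 12116 genes rose, with a median of 2.22 against -0.05. All 7 genes were called without mouse 19, with Ciita then past the filter. None was called without any one of mice 1, 2, 3, 17 or 18, and 6 of 6 were with all days in 1 fit.
In anus 0 of 6 genes were called, with 1.46% of 13747 genes called. An unadjusted p under 0.05 was met by 2 of the 6 members and by 2643 of all genes. Anal H2-Aa stood at 278.6, 573.4 and 312.5 TPM, with mouse 18 high.
Between day 9 and day 20 no gene of 7 was called in rectum, where 20.8% of 13097 genes were called in either direction, or in mid-colon, where 20.6% of 12308 were. The H2-Aa estimates were 0.12 ± 0.59 and 1.0 ± 0.45, and at an unadjusted p under 0.05 there were 0 members in rectum and 1 in mid-colon. All genes at that level numbered 4729 of 13097 in rectum and 4337 of 12308 in mid-colon. Without mouse 19, 4 genes were called as higher at day 20 in mid-colon, among them Cd74 at 2.12 (adjusted p = 0.00651) and H2-Aa at 1.60 (adjusted p = 0.00614).

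In fits without a term for mouse, the neo-epithelium carried class II transcripts at levels not called different from those of rectum or anus. With the mouse as a block, H2-Aa and H2-Eb1 were called higher than in anus. H2-Aa stood at 84.44, 269.8 and 274.8 TPM at day 9, at 516.1, 624.6 and 653.9 TPM at day 14 and at 288.7, 778.1 and 329.2 TPM at day 20. Cd74 stood at 74.74, 229.5 and 241.4 TPM, then at 317.1, 401.4 and 424.8 TPM, then at 156.1, 499.5 and 157.6 TPM. The day 14 mice were even, while mouse 11 was low at day 9 and mouse 18 high at day 20.
Over the 9 mice none of 7 genes was called against rectum, where 42.9% of 13024 genes were called in either direction. The estimates ran from -0.51 ± 0.39 for H2-Aa (adjusted p = 0.308) to -0.06 ± 0.41 for H2-Ab1 (adjusted p = 0.922), with a median of -0.35 against 0.00 over all genes.
Against anus none of 6 was called, where 59.8% of 13256 genes were. H2-Aa was at 0.31 ± 0.26 (adjusted p = 0.305) and H2-Eb1 at 0.30 ± 0.24 (adjusted p = 0.288). With the mouse as a block both were called (adjusted p = 0.0152 and 0.0285) at the same estimates, and at day 14 alone H2-Aa (0.55, adjusted p = 0.0381) and H2-DMb1 (0.62, adjusted p = 0.0325) were.
Day 20 against day 9 gave no call for any of 6 genes, where 26.2% of 13186 genes were called. H2-Aa was at 1.18 ± 0.56 (adjusted p = 0.164). In all 3 neo-epithelial comparisons, fitted without the block, 0 members had an unadjusted p under 0.05. All genes at that level numbered 6509 of 13024 against rectum, 8499 of 13256 against anus and 5379 of 13186 at day 20 against day 9. In this last one H2-Aa and H2-Eb1 did not overlap between the days, both higher at day 20, as 17.7% of 13523 genes were, with another 27.8% all lower, and the other 5 members overlapped.
Other gene lists were called in the same comparisons. All 4 tested B cell genes were lower in neo-epithelium than in rectum, with Cd79a, a signalling chain of the B cell receptor, at -2.58 ± 0.56 (adjusted p = 0.00123). All 7 tested colonic epithelial genes were higher in neo-epithelium than in anus, as were 8 of 10 class I genes. Colonic epithelial markers in neo-epithelium summed to 253.4 to 990.2 TPM at day 9 and 2728.7 to 5555.9 TPM at day 20. Cd207 was at or under 1.11 TPM in all 9 neo-epithelial libraries, and at or under 0.72 TPM in the rectum of the same days. In anus it was at 0.44 to 2.52 TPM at day 9, 1.13 to 1.58 TPM at day 14 and 1.12 to 1.82 TPM at day 20. The part of these lists in the class II levels was not tested.

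On the TPM scale, which adjusts for transcript length, H2-Aa, H2-Ab1 and Cd74 changed places at the top while the lower genes mostly held their order. H2-Aa was first in 50 of 66 libraries, H2-Ab1 in 15 and Cd74 in 1. Below them H2-Eb1 ranked behind these 3 in 65, H2-DMb1 and then H2-DMa followed in 64 each, and Ciita was last in all 66. The ratio of Cd74 to H2-Aa lay between 0.60 and 0.88 in every day 0 library. It was 1.45 in the mid-colon of mouse 18, the one library in which Cd74 was first, and 0.33 in the mid-colon of mouse 19. Across the 66 libraries, log2(TPM + 1) of H2-Aa had a Pearson r of 0.985 with H2-Eb1, 0.964 with Cd74, 0.942 with H2-Ab1 and 0.816 with Ciita. These libraries share mice and sections, and r is given as a description.

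**Figure D3:**
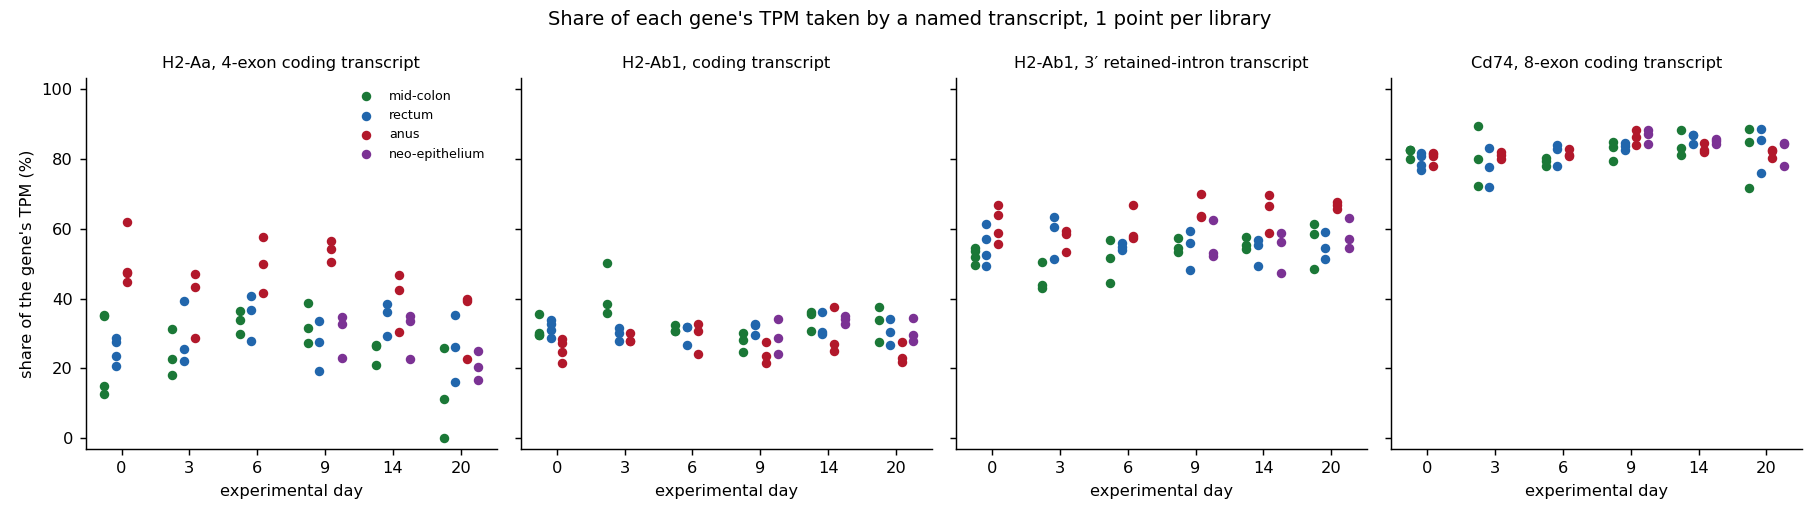
Percent of the gene's TPM assigned to 4 transcripts, 1 point per library, against experimental day. The H2-Aa transcript with 4 exons takes 44.6% to 61.8% in the day 0 anus and 20.7% to 28.8% in the day 0 rectum, and the Cd74 transcript lies between 71.7% and 89.5%.

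Transcript assignments bear on these levels. H2-Ab1 was split between 3 transcripts. Its coding transcript of 1212 bases (ENSMUST00000040828) took 21.6% to 35.6% of the gene's TPM at day 0. A pair annotated as retained introns took the rest, one of 515 bases (ENSMUST00000174875, chr17:34268270-34269394) with 49.4% to 66.8% and one of 628 bases (ENSMUST00000173103, chr17:34267102-34268034) with 10.0% to 20.3%. Because TPM divides by length, reads on the short transcripts weigh more, so the level of H2-Ab1 against its partner H2-Aa depends on this split. With coding transcripts only, every call on H2-Ab1 kept its direction and its side of the threshold except rectum against mid-colon at day 0, which was then called (0.69, adjusted p = 0.0446).
H2-Aa was divided between 2 coding transcripts, one with 5 exons and 1128 bases (ENSMUST00000040655) and one with 4 exons and 826 bases (ENSMUST00000174751). The 4-exon form took 44.6% to 61.8% of H2-Aa TPM in the day 0 anus, 20.7% to 28.8% in the day 0 rectum and 12.6% to 35.2% in the day 0 mid-colon. Anus and the other sections did not overlap at day 0. The form took 0.0% in the mid-colon of mouse 18. Cd74 had 71.7% to 89.5% of its TPM on its 8-exon transcript (ENSMUST00000050487) over the mid-colon libraries, and its share lay inside that range in the other sections. H2-DMb1 was split as well. A processed transcript of 692 bases (ENSMUST00000174765) took a median of 38.4% of its TPM in mid-colon and 48.5% in anus, and up to 66.4% in rectum. A retained intron (ENSMUST00000173907) took up to 53.2% of H2-DMa TPM in mid-colon. The order of H2-DMb1 and H2-DMa thus also depends on these splits. Ciita was represented by 1 transcript of 19 exons (ENSMUST00000023147), and its other annotated start sites were not analysed here.

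Other genes of the class II pathway did not move as one. H2-Oa and H2-Ob form H2-DO, which restrains H2-DM and is mostly a B cell product. Rectal H2-Ob stood at 0.77, 22.01 and 10.33 TPM in mice 14, 15 and 16 and at 13.29, 10.89 and 1.35 TPM in mice 17, 18 and 19, and at 1.28, 0.20, 0.31 and 4.53 TPM in mice 1 to 4. Mid-colon H2-Ob reached 15.06 TPM in mouse 17 alone, against 1.12 and 0.78 TPM in mice 18 and 19. H2-DMb2, the second DM beta gene, which is close in sequence to H2-DMb1 so that reads may be split uncertainly between them, stood at 2.29, 66.87 and 28.27 TPM in the rectum of mice 14, 15 and 16. H2-Ea-ps, the E alpha pseudogene that b-haplotype mice such as C57Bl/6 do not express, was listed at 0 in every library but a pair, at 0.09 and 0.10 TPM.
Of 7 factors of the promoter complex, which bind the X and Y boxes, 2 rose and 1 fell in rectum at day 9, where 33.5% of all genes tested rose, and likewise in mid-colon, where 26.5% did. In both sections the rises were those of Rfx5 (0.70 ± 0.15 and 0.96 ± 0.21, adjusted p = 0.00366 and 0.00477) and Nfyb, and the fall that of Rfxank (-0.96 and -0.95). By another measure, with no call, 20.6% of 13523 genes had all rectal day 9 values below every day 0 value, and 16.7% did in mid-colon. The list's median was 0.29 in rectum, against 0.13 over all genes. At day 14 none of the 7 rose in either section, and Rfxank fell in rectum, where 17.0% of 13523 genes lay wholly below day 0.
Among 6 genes of endosomal processing, 4 rose in rectum at day 6 (11.5% of all genes tested) and 2 at day 9 (33.5%), with Lgmn, an asparagine endopeptidase, up by 2.25 ± 0.17 at day 9 (adjusted p = 1.35e-05). In mid-colon at day 9, 1 rose and 3 fell, where 26.5% of all genes rose and 16.7% of 13523 lay wholly below day 0. Ctss, the cathepsin that trims the invariant chain, fell there by 1.15 ± 0.19 on the log2 scale (adjusted p = 0.00102) while Cd74 rose. March1, a ubiquitin ligase that removes class II from the surface, rose in rectum at day 9 by 2.35 ± 0.18 (adjusted p = 1.8e-05), and its relative March8 changed by -0.96 ± 0.18 (adjusted p = 0.00189). Of 4 tested costimulation genes 3 rose there, against the same 33.5% of all genes, with Cd86, a ligand of CD28, up by 2.80 ± 0.19 (adjusted p = 7.95e-06) and Cd40 by 3.38 ± 0.47 (adjusted p = 0.00038).
Class I presentation genes, which display peptides from inside the cell, were mostly called higher in rectum. Of 10 genes, 8 rose and 1 fell at day 6 and again at day 9, and 8 rose and none fell at day 14, where 11.5%, 33.5% and 6.31% of all genes tested rose. At these days 38.5%, 20.6% and 17.0% of 13523 genes lay wholly below day 0. The largest rise at day 9 was that of Nlrc5, the class I transactivator related to Ciita, 3.42 ± 0.51 (adjusted p = 0.000594), followed by the peptide transporter Tap1, 3.27 ± 0.43 (adjusted p = 0.000296), and the heavy chain H2-K1 was the one that fell, at -0.52 ± 0.12 (adjusted p = 0.00734). At day 20, 1 of 9 class I genes was called higher in rectum, where 2.79% of all genes were, and 1 of 9 in mid-colon, where 0.677% were.

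**Figure D4:**
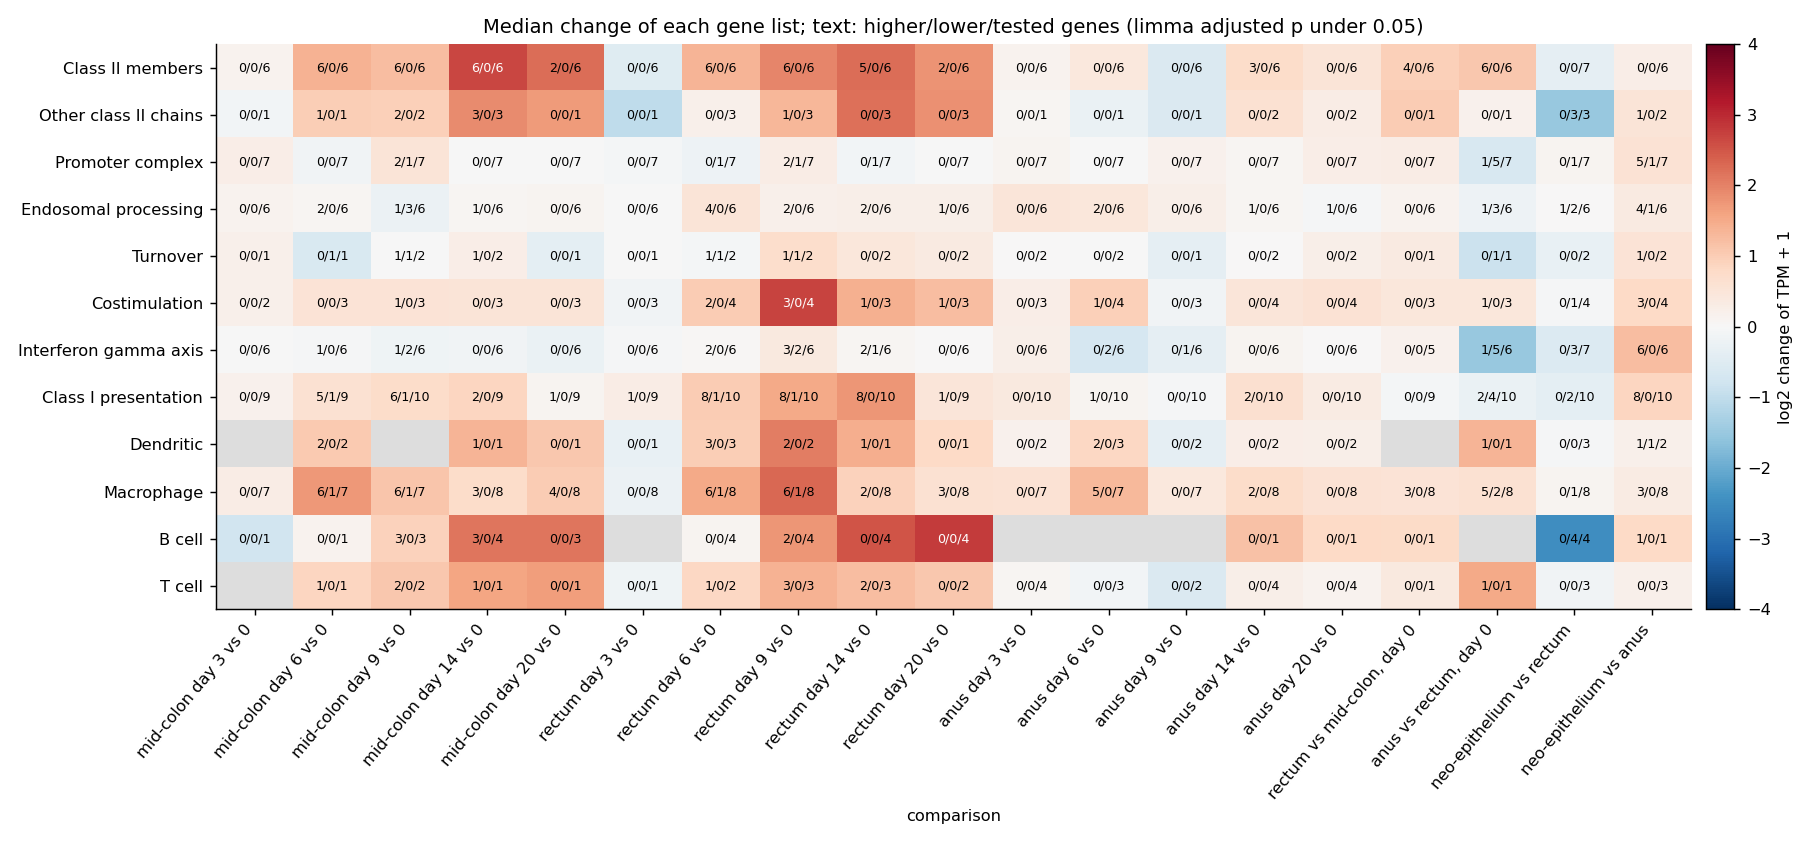
Median log2 change of TPM + 1 of each gene list (rows) in each comparison (columns), with the number of genes higher, lower and tested printed in each cell and grey where no gene of a list passed the filter. The class II row and the class I row are positive in rectum at days 6, 9 and 14, while the promoter complex row stays near 0 in the same columns, between -0.20 and 0.29.

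Interferon gamma was uneven across the mice of days 9 to 20. Ifng, the cytokine that induces Ciita, stood at 0.25, 31.73 and 22.69 TPM in the rectum of mice 11, 12 and 13, at 0.08, 3.38 and 9.54 TPM in mice 14, 15 and 16 and at 0.05, 3.87 and 0.00 TPM in mice 17, 18 and 19. Mice 11, 14 and 19 were the lowest of their day in rectal Ifng and in all 7 rectal class II genes. They were also the lowest of their day in the rectal sums of T cell markers (12.02, 6.08 and 3.27 TPM), B cell markers (24.13, 9.83 and 17.55 TPM) and dendritic markers (6.56, 3.53 and 3.35 TPM). Their share of mitochondrial transcripts was the highest of their day in rectum, at 11.74%, 18.5% and 20.7% of TPM. The part of these in the class II levels was not tested.
Mouse 17 had low Ifng beside high class II. Its rectum had Ifng at 0.05 TPM, beside H2-Aa at 631.5 TPM and B cell markers that summed to 180.7 TPM. Its mid-colon had Ifng at 0.07 TPM, H2-Aa at 507.7 TPM and a B cell sum of 125.3 TPM, the highest of the 19 mid-colon libraries.
The mid-colon of mouse 18 had Ifng at 0.68 TPM, Cd74 at 566.6 TPM and a B cell sum of 14.54 TPM, the middle of the 3 day 20 values and above the 2.02 to 4.23 TPM of day 0. In rectum the B cell sum was 9.83, 260.2 and 99.92 TPM in mice 14, 15 and 16, so that mice 15 and 16, high in rectal class II, were high in both Ifng and B cell markers.
At day 6 rectal class II genes were above day 0 with Ifng near 0. Rectal Ifng was at 0.00, 0.05 and 0.00 TPM in mice 8, 9 and 10, and the B cell sum at 19.69, 11.47 and 1.99 TPM against 1.64 to 29.97 TPM at day 0. Mouse 10, with the lowest B cell sum, had the highest rectal H2-Aa of the 3.
Macrophage markers took another course over time. Their rectal sum was 359.6 to 895.9 TPM at day 6, 608.1 to 864.8 TPM at day 9, 155.0 to 427.8 TPM at day 14 and 192.1 to 291.4 TPM at day 20, and 6 of 8 of them were lower and 1 higher at day 20 than at day 9, where 20.8% of all genes were called in either direction. Mouse 11, lowest in rectal class II at day 9, had the highest macrophage sum of that day. Dendritic markers summed to 6.56, 21.69 and 20.46 TPM in the rectum of mice 11, 12 and 13, and to 2.03 to 3.26 TPM at day 0. Colonic epithelial markers summed to 5767.7 to 7115.3 TPM in the day 9 rectum against 11704.0 to 13628.6 TPM at day 0. The part of each list in the class II levels was not tested.

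**Figure D5:**
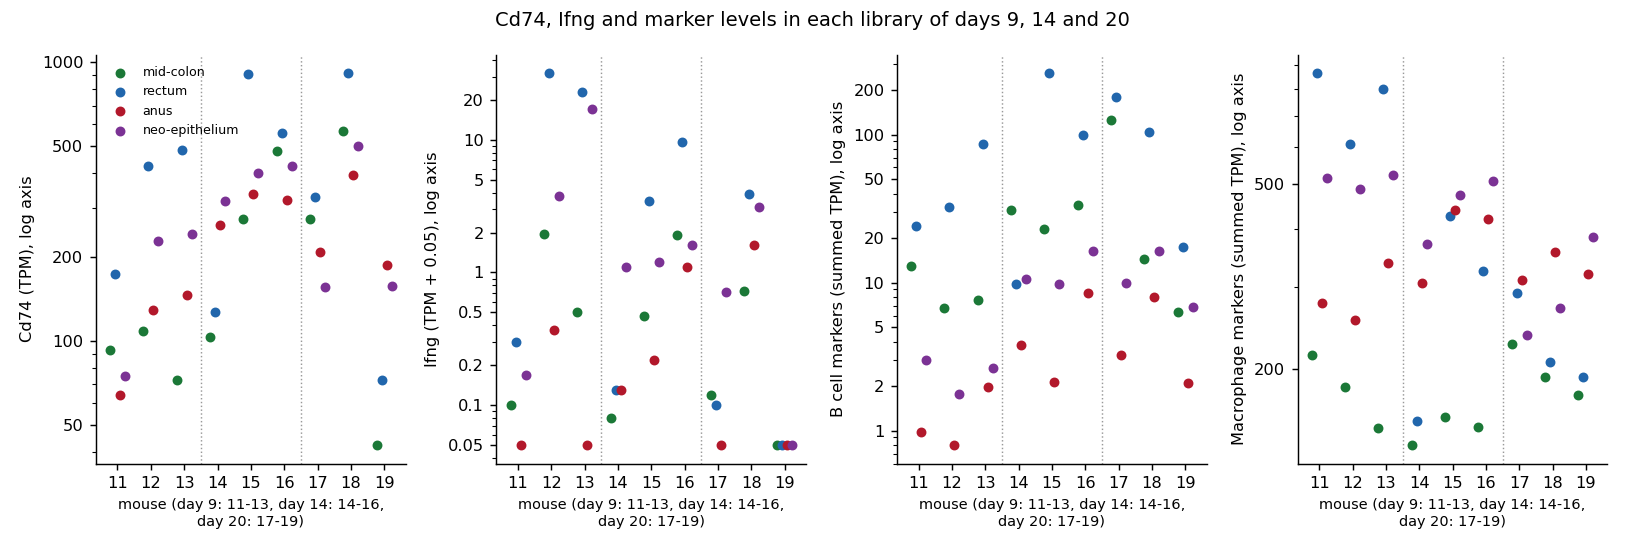
Cd74 (TPM), Ifng (TPM + 0.05, so that values listed at 0 can be drawn) and summed B cell and macrophage markers (TPM), all on log axes, for each mouse of days 9, 14 and 20, with 1 point per section. In rectum, mice 11, 14 and 19 are low in Cd74 and Ifng within their day, and mouse 17 is low in Ifng but high in B cell markers at 180.7 TPM.

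The genes whose levels were most like those of the members, by Pearson r of log2(TPM + 1) with the mean of the 7 over 66 libraries and 13517 genes with a mean of at least 1 TPM, were H2-Q7 (r = 0.921), H2-Q6 (0.903), Gimap6 (0.894), Cd72 (0.879) and Gimap4 (0.876). H2-Q7 and H2-Q6 are class Ib genes so alike that reads cannot be divided between them with confidence, Cd72 is a B cell surface receptor and the Gimap genes are GTPases of lymphocytes. Within single sections r with H2-Q7 was 0.96 over 19 mid-colon libraries, 0.96 over 19 rectal, 0.74 over 19 anal and 0.85 over 9 neo-epithelial libraries. H2-Q7 stood at 2.78, 1.17, 1.61 and 2.43 TPM in the day 0 rectum and at 10.43, 83.67 and 76.47 TPM in the rectum of mice 14, 15 and 16.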

How the data were processed

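Per the labels, the muscle-free mucosa of each section was lysed in Trizol and stranded mRNA libraries were read as single ends on a NextSeq. The anal libraries nonetheless held skeletal muscle transcripts, at the levels given above. The submitters' processing notes name CASAVA, kallisto and the mm10 build, without versions. The authors deposited TPM values per Ensembl transcript, with 126860 rows, of which 37344 had no values. After 1318 repeat rows were dropped, 88198 transcripts were left (86031 of them in GENCODE M21), and TPM was summed per gene. TPM is a share of the library, so a large rise elsewhere lowers other values, and no counting error can be given. A gene was tested if its TPM was 1 or more in a number of samples equal to the size of the smaller group. The test was limma 3.58.1 (R 4.3.3, empirical Bayes with trend) on log2(TPM + 1), with Benjamini-Hochberg adjustment over all genes tested. A fold change on this scale understates the change of low genes such as Ciita. Each day was compared with day 0 of its section in a fit of those 2 groups. Neo-epithelium was compared over days 9, 14 and 20, and responses through an interaction. On simulated data, 66 of 100 genes changed by 1 on the log2 scale and 95 of 100 changed by 2 were called in the rectum at day 9 comparison of 13140 genes. For the response of rectum less mid-colon at day 9, over 13520 genes, 37 of 100 and 87 of 100 were. No other genes were changed in these simulations, whereas 4404 of 13140 genes were called higher in the real rectum at day 9. Noise was drawn independently for each library, without the likeness of sections from 1 mouse. The rates in the real data may therefore differ.

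The mouse is the replicate. Sections of one mouse come from the same animal, so a second fit of each between-section comparison had a term for mouse as the block. The mean correlation across genes of a mouse's deviations from the group means was 0.269 for neo-epithelium and rectum, 0.162 for neo-epithelium and anus, 0.137 for rectum and mid-colon at day 0 and 0.054 for anus and rectum at day 0. The 7 members and the gene lists were chosen with earlier results of these data known. All 7 members are reported in every comparison. From the other lists, genes were named if called in rectum or mid-colon at day 9 with the largest changes, up to 3 per list, as were markers needed for levels and the 5 genes most like the members. Single-gene values of other list genes at other days, and Ifng, H2-Ob, H2-DMb2 and H2-Ea-ps, were chosen after their values were seen. Some genes of these lists are not reported here, and sums and counts leave them out. Alternatives were a pseudocount of 0.1 TPM, no filter, a filter of 5 TPM, median-ratio scaling, mitochondrial genes left out, repeat rows kept, all days of a section in 1 fit, the block, single days, each mouse left out and, added after the data were seen, protein-coding transcripts of the members only. Tables were handled with Python 3.11.15, pandas 2.3.3 and numpy 2.4.6, and plots drawn with matplotlib 3.10.9.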

Additional observations from a re-analysis of the deposited data

Results flagged for a closer look

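In 2 of the day 0 groups of 4 mice, 1 library lay far from the other 3, as the gap to its nearest neighbour over the whole range. Mid-colon H2-Aa stood at 52.1, 51.12, 51.33 and 63.76 TPM, with mouse 4 high (gap share 0.92), and mid-colon H2-DMa at 3.12, 1.97, 2.14 and 1.98 TPM, with mouse 1 high (gap share 0.85). Such a gap is met by chance in about 1 in 20 groups, and 21 groups of 4 mice were looked at (7 genes in 3 sections).

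The day 9 response differed between anus and rectum for 6 members, each by a test of the difference itself (limma interaction). On the log2 scale the anal less the rectal response was -3.01 for Cd74, -2.65 for H2-Aa, -2.48 for H2-Ab1, -2.36 for H2-Eb1, -2.04 for H2-DMb1 and -2.03 for H2-DMa.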

How the results depend on the processing

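No called member changed sign under any alternative run. Counts of members called that moved by more than 1.5 times were these. With all days of a section in 1 fit, the counts were 3 in mid-colon at day 6 (6 before), 6 in mid-colon at day 20 (2 before), 1 in rectum at day 6 (6 before), 0 in anus at day 14 (3 before) and 1 for mid-colon day 20 against day 9 (0 before). With no filter they were 3 in mid-colon at day 14, 0 in mid-colon at day 20, 0 in rectum at days 14 and 20 and 0 for rectum against mid-colon at day 0, where more genes were tested. Median-ratio scaling left 0 in anus at day 14 and 1 for rectum against mid-colon. With the mouse as a replicate block the count was 2 for neo-epithelium against anus, and the block changed no other count by that much. At day 14 alone that comparison also gave 2.

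Leaving out 1 mouse gave 2 to 7 calls in mid-colon at day 14, 0 to 7 in mid-colon at day 20, 0 to 7 in rectum at day 14, 0 to 7 in rectum at day 20, 0 to 3 in anus at day 14, 0 to 3 for rectum against mid-colon at day 0, 0 to 1 for neo-epithelium against anus, 0 to 2 for the day 9 response of rectum less mid-colon and 0 to 4 for mid-colon day 20 against day 9. Counts of 7 include Ciita, which passed the filter in these comparisons with day 0 only when a low mouse was left out. Apart from fewer samples or more genes tested, the cause was not tested. Median-ratio scaling moved the median of all genes by more than 0.1 on the log2 scale in 10 comparisons, by up to 0.25 in rectum at day 6. Depth per library is unknown.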
